A study of Saccharomyces cerevisiae with 50 samples.

Results

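Mitochondrially encoded genes of yeast were followed across ribosomal protein deletion strains. They are 9 genes, COX1 (Q0045), COX2 (Q0250), COX3 (Q0275), COB (Q0105), ATP8 (Q0080, named AAP1 in the tables), ATP6 (Q0085), OLI1 (Q0130), VAR1 (Q0140) and SCEI (Q0160). They were taken by systematic name and are 9 of the 27 mitochondrial rows and of 6679 open reading frames in each table. All samples were budding yeast of the SK1 background, harvested during exponential growth (OD600 0.6) at 30 °C in YEPD, a rich medium, with 2% glucose. Each of 25 strain samples gave 1 library of ribosome footprints, the RNA pieces protected by translating ribosomes, and 1 library of mRNA.

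The 9 RPS strains carried deletions of genes for proteins of the small cytosolic ribosomal subunit. They were rps0b (4651), rps22a (4659), rps22a (4662v), rps25b (4658v), rps25a rps25b (7463), rps28a (4472v), rps28b (4474), rps29b (4480v) and the double heterozygote rps22a/+ rps22b/+ (4665). The 14 RPL strains carried deletions of genes for proteins of the large subunit. They were rpl7a (7962), rpl24a (7469), rpl24b (7465), rpl26a, rpl26b (2374), rpl26a rpl26b (5048), rpl38 (3853v), rpl40a (7889), rpl40b (2700), rpl41a (7467), rpl41b (7461) and the double heterozygotes rpl7a/+ rpl7b/+ (2435), rpl26a/+ rpl26b/+ (4654v) and rpl40a/+ rpl40b/+ (3654v). The 2 wild-type libraries of each assay share the strain number 4484, and the labels do not say whether they came from separate cultures. Every mutant strain had 1 library per assay, so a class is a set of different genotypes, except for the 2 strains labelled rps22a, and p-values measure the spread between these libraries.

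Yeast mitochondria keep a small genome of their own, copied by the polymerase Mip1, transcribed by the polymerase Rpo41 and read by mitochondrial ribosomes, which are distinct from the cytosolic ribosomes altered here. Its genes encode the catalytic core of cytochrome c oxidase and the cytochrome b of the bc1 complex. They also encode membrane subunits of the ATP synthase and a single protein of the mitochondrial ribosome. Nuclear genes supply every other subunit, and the messages for those are read by cytosolic ribosomes. Cells growing on glucose ferment and can live without this genome. In a culture, fewer cells that carry mitochondrial DNA and less mitochondrial RNA per cell cannot be told apart.

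Library totals were 4101775 to 8571541 reads for footprints and 961814 to 3506457 for mRNA. Levels are RPKM, reads scaled to the counted coding length and the library total, recomputed from the deposited values. Of 21 mRNA values of homozygously deleted genes, 20 lay below the range of the strains labelled for other gene families, and of 19 footprint values 18 did. The exception in both assays was the strain labelled rps22a (4662v), where RPS22A stood at 93.4% of the median of the other strains in mRNA and 111% in footprints. RPL26A and RPL26B were at 99.9% and 101% of that median in footprints of the strain labelled rpl26a/+ rpl26b/+ (4654v), and at 53.1% and 51.2% in its mRNA. In mRNA of rpl40a/+ rpl40b/+ (3654v), RPL40A was at 96.4%, within the range of the other strains. The labels describe the mRNA libraries as total RNA sequencing, and a selection by poly(A) tail, which yeast mitochondrial messages lack, is not given in the sources used here.

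Every strain contained mitochondrial transcripts. The 9 genes together took 0.419 to 0.690% of mRNA reads in RPS strains, 0.409 to 0.614% in RPL strains, and 0.461% and 0.663% in the wild-type libraries. Most of these reads were those of SCEI. Without it the shares were 0.0482 to 0.101% in RPS strains, 0.0489 to 0.103% in RPL strains, and 0.0532% and 0.0895% in wild type. No tested member was more than 4-fold from its median over the 25 libraries in any of them.

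The members kept nearly the same order of level within each library. Mean mRNA levels over the 25 libraries were 6718 RPKM for SCEI, 580 (SD 96.8) for ATP8, 231 (SD 53.6) for COX1, 180 (SD 55.4) for COX3, 93.9 (SD 23.3) for COX2 and 47.9 (SD 13.4) for COB. OLI1 followed at 23.0 (SD 7.76), VAR1 at 18.2 (SD 9.62) and ATP6 at 1.37 (SD 1.59). Each gene of this series exceeded the next in 25 of 25 libraries, except that OLI1 exceeded VAR1 in 17 of 25, so these neighbours did not differ beyond their spread. The counts behind the levels differ widely, with 3854 to 16764 reads a library for SCEI, 43 to 248 for ATP8, 11 to 59 for VAR1 and 2 to 17 for OLI1.

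**Figure D1:**
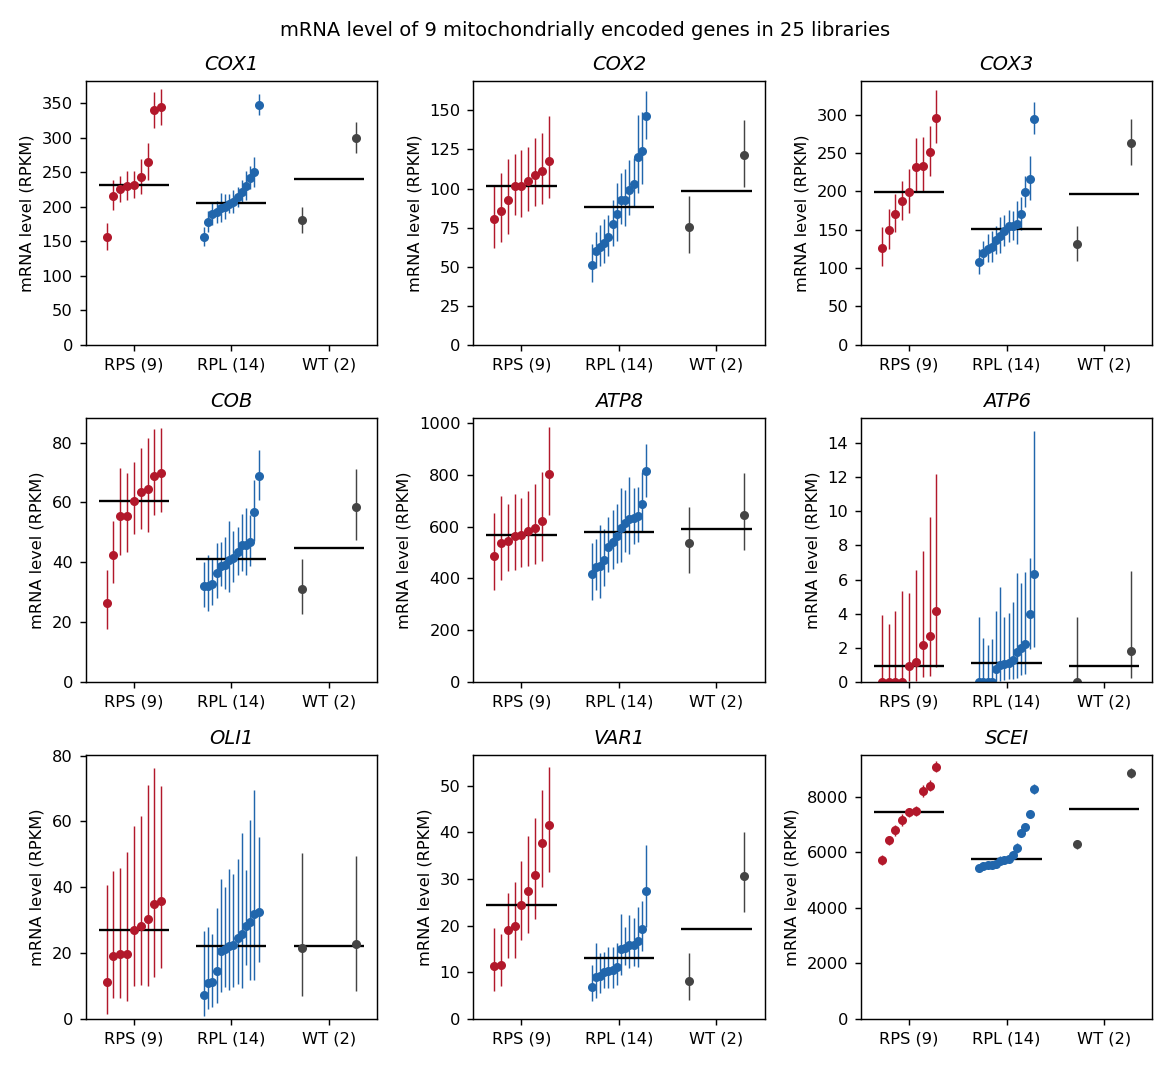
mRNA level in RPKM (vertical axes, linear, a scale for each gene) of the 9 genes in 9 RPS, 14 RPL and 2 wild-type libraries, each a point with its exact 95% Poisson interval, and a bar at the median of the class. The RPS and RPL points overlap for every gene, and the 2 wild-type points lie far apart for VAR1 and COX3 and close together for OLI1.

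COX1, COX2 and COX3 are the core subunits of cytochrome c oxidase, the last enzyme of the respiratory chain. The COX1 product carries the haem and copper site where oxygen is reduced. Its lowest, median and highest mRNA levels were 156, 232 and 344 RPKM in RPS strains and 156, 206 and 348 RPKM in RPL strains, with 180 and 300.2 RPKM in wild type 1 and wild type 2. The highest RPL value was that of rpl38 and the lowest RPS value that of rps25a rps25b, so the classes overlapped over almost their whole range.

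COX2, whose copper centre takes electrons from cytochrome c, had 80.4, 101 and 118 RPKM as its lowest, median and highest mRNA level in RPS strains and 51.1, 87.9 and 147 RPKM in RPL strains. The wild-type libraries had 75.2 and 121 RPKM. COX2 was more even in RPS strains, with an SD of 12.2 RPKM against 27.7 RPKM in RPL strains, where rpl24b was lowest and rpl38 highest. COX3, the third core subunit, had 126, 199 and 296 RPKM in RPS strains, 107, 151 and 295 RPKM in RPL strains, and 131 and 263 RPKM in wild type. For COX3, 7 of 9 RPS strains lay above the RPL median.

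COB encodes cytochrome b, the mitochondrially made subunit of the bc1 complex. Its mRNA level ran over 26.3, 60.6 and 69.7 RPKM (lowest, median, highest) in RPS strains and 31.9, 41.0 and 68.8 RPKM in RPL strains, with 30.9 and 58.5 RPKM in wild type. All but 1 of the 9 RPS strains, rps25a rps25b at 26.3 RPKM, were above the RPL median.

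ATP8, ATP6 and OLI1 encode subunits of the membrane-embedded part of the ATP synthase, OLI1 being the subunit of the rotating ring. ATP8 mRNA had 486, 566 and 803 RPKM as its lowest, median and highest level in RPS strains, 415, 579 and 813 RPKM in RPL strains, and 644 and 537 RPKM in wild type. It was the most even of these genes beside SCEI, with an SD of log2 levels over the 25 libraries of 0.24 for both, against a median of 0.22 over the 5103 genes tested. OLI1 had 11.3, 26.9 and 35.9 RPKM in RPS strains, 7.42, 22.2 and 32.4 RPKM in RPL strains, and 21.6 and 22.8 RPKM in wild type, all on few reads. ATP6 is cotranscribed with ATP8 in yeast, yet gave 42 mRNA reads in all 25 libraries, with 9 libraries at 0, and was too low to test. Its mRNA level was 0 to 4.17 RPKM in RPS strains, 0 to 6.31 in RPL strains, and 0 and 1.80 in wild type.

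VAR1 encodes the mitochondrially made protein of the small subunit of the mitochondrial ribosome. It varied most among the tested members, with an SD of log2 levels of 0.69, larger than in 96.8% of the genes tested. VAR1 had only 11 to 59 reads a library, and the part of counting error in this spread was not tested. Its lowest, median and highest mRNA levels were 11.4, 24.3 and 41.7 RPKM in RPS strains and 6.87, 13.01 and 27.5 RPKM in RPL strains, with 8.04 and 30.6 RPKM in wild type. The wild-type pair thus spanned much of the range of both mutant classes, and rps25a rps25b and rps25b were the low RPS strains.

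SCEI, the homing endonuclease I-SceI, lies inside the intron of the 21S ribosomal RNA gene. Reads of a message for the enzyme, of unspliced ribosomal RNA and of the free intron cannot be told apart in a count of this frame. SCEI had 5719, 7441 and 9087 RPKM as its lowest, median and highest mRNA level in RPS strains, 5417, 5748 and 8276 RPKM in RPL strains, and 6285 and 8846 RPKM in wild type. Of the 9 RPS strains 8 were above the RPL median, and of the 14 RPL strains 13 were below the RPS median.

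The libraries allow strains with small-subunit gene deletions to be set against strains with large-subunit gene deletions. Between these classes VAR1 and SCEI mRNA were higher in RPS strains, and the other tested members were not separated. VAR1 averaged 24.9 ± 10.6 RPKM in RPS strains and 13.8 ± 5.39 RPKM in RPL strains (SD, n = 9 and 14), a log2 change of 0.77 (SE 0.24, limma adjusted p = 0.043). SCEI averaged 7412 ± 1042 RPKM in RPS strains and 6150 ± 856 RPKM in RPL strains, a log2 change of 0.27 (SE 0.084, limma adjusted p = 0.041). These are 2 of 8 members tested, where 9.66% of 5103 genes were past an adjusted p of 0.05, 2.92% as higher and 6.74% as lower in RPS strains. The split of all calls moved with the scaling: 149 genes were higher and 344 lower here, against 260 and 315 under median-of-ratios scaling and 324 and 289 under quantile normalization.

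Both calls lie at the threshold. Of the 25 fits that each left out 1 library, VAR1 passed in 9, with a log2 change of 0.67 to 0.89 and an adjusted p of 0.013 to 0.095, and SCEI in 11, with a log2 change of 0.23 to 0.31 and an adjusted p of 0.0097 to 0.095. Neither passed without the mRNA library labelled rps22a (4662v), where the log2 changes were 0.72 for VAR1 and 0.25 for SCEI (adjusted p = 0.072 and 0.071). Removal of rps25a rps25b, rps25b, rpl7a, rpl26a rpl26b, rpl26a/+ rpl26b/+ or either wild-type library left both past the test. COB passed as well without rps25a rps25b, in a fit where calls over all genes grew to 874, against 493 with that library, and 6.32% of genes were called higher. VAR1 alone passed without rpl26a or rpl40b, and SCEI alone without rpl38, rpl41a, rpl41b or rps29b. Neither passed without rpl7a/+ rpl7b/+, rpl24a, rpl24b, rpl26b, rpl40a, rpl40a/+ rpl40b/+, rps0b, rps22a (4659), rps22a/+ rps22b/+, rps28a or rps28b.

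The other 6 tested members had log2 changes above 0 that did not pass. They were 0.37 for COB (SE 0.15, limma adjusted p = 0.12), 0.35 for COX3 (SE 0.16, adjusted p = 0.17), 0.24 for OLI1, 0.22 for COX2, 0.20 for COX1 and 0.05 for ATP8. The median of the 8 was 0.26, beside −0.02 over all genes tested, of which 44.6% had a change above 0. At an unadjusted p under 0.05 there were 4 of 8 members, beside 25.7% of all genes. The members share libraries and a genome, so they are not independent of each other. Without rpl38, rpl24b and rps25a rps25b, the strains examined first, COX1, COX3, COB, VAR1 and SCEI passed. In that fit 6.38% of 5094 genes were called higher and 8.85% lower, more in both directions than with all libraries. The strains left out have the highest and the lowest RPL profile of the members and the lowest RPS profile, so the removal bears on these same levels. RPS libraries were also shallower, with a median of 1241441 mRNA reads against 1999750 in RPL libraries, and the part of depth in these differences was not tested. The correlation of the members' mean log2 level with the log2 library total was −0.231 over the 25 libraries.

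Nuclear genes for the enzymes that hold mitochondrially made subunits had changes below 0 in RPS over RPL strains. The tested mitochondrially encoded genes of these enzymes had changes above 0, none of which passed the test. Of 9 nuclear genes for cytochrome c oxidase subunits, 6 were lower in RPS strains and none higher, with a median log2 change of −0.29. COX9 averaged 421 ± 117 RPKM in RPS strains and 585 ± 104 RPKM in RPL strains, a log2 change of −0.50 (SE 0.12, limma adjusted p = 0.012). The wild-type libraries had 399.5 and 459.5 RPKM of COX9, nearer the RPS mean. COX7 (log2 change −0.41) and COX12 (−0.33) were lower in RPS strains too. All 3 encode small subunits around the mitochondrially made core. Of 9 nuclear genes of the bc1 complex 6 were lower, with a median of −0.29, led by the small subunit genes QCR9 (−0.52), QCR7 (−0.40) and QCR8 (−0.39). Of the cytochrome c oxidase genes 2 were lower under quantile normalization and 3 without the library labelled rps22a (4662v), and none was higher under any scaling, pseudocount, minimum or count-based fit that was run.

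Of 14 nuclear ATP synthase genes 13 were lower in RPS strains and none higher, with a median log2 change of −0.36. ATP14, a peripheral stalk subunit, averaged 365 ± 87.3 RPKM in RPS strains and 556 ± 104 RPKM in RPL strains (log2 change −0.62, SE 0.11, limma adjusted p = 0.0019). The wild-type libraries had 594.6 and 554 RPKM of ATP14, nearer the RPL mean. ATP15, of the central stalk, had a log2 change of −0.47, and TIM11, which encodes the dimer subunit e, −0.45. These counts stand beside the 6.74% of all genes that were lower and the 2.92% that were higher. Members and nuclear partners were set side by side from the same fit, and the difference between their changes was not tested.

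**Figure D2:**
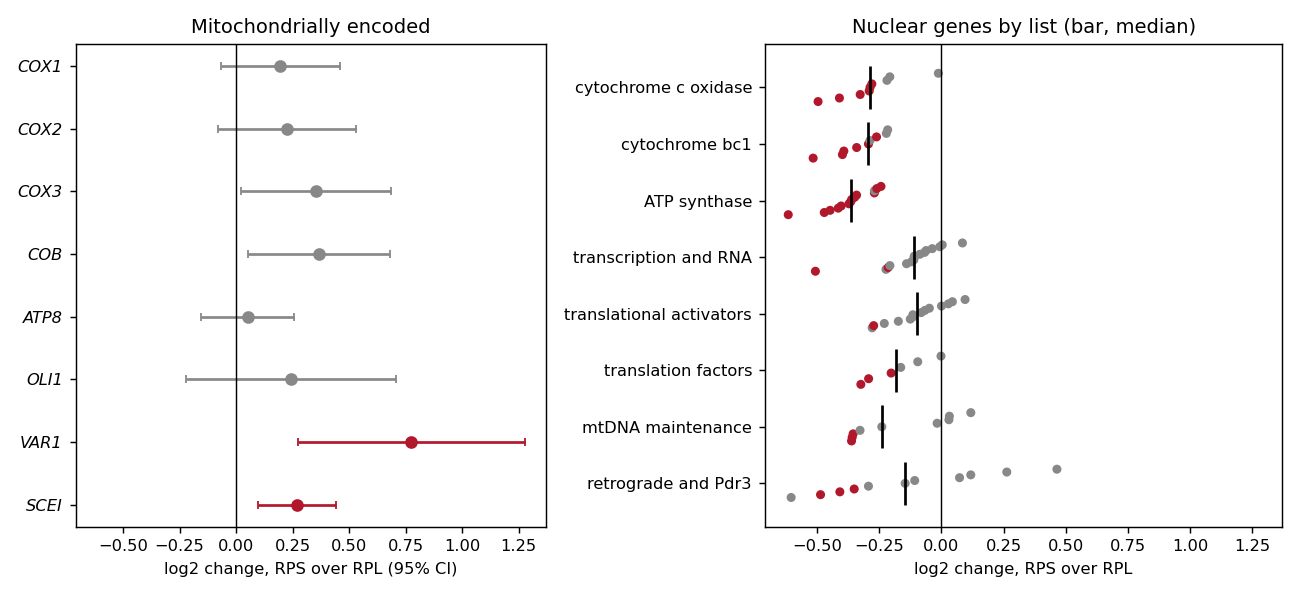
Log2 change in mRNA of RPS over RPL strains (horizontal axes) for the 8 tested mitochondrially encoded genes with 95% confidence intervals (left) and for nuclear genes in 8 lists (right, each point a gene, a bar at the median). Red marks an adjusted p under 0.05. All 8 mitochondrial points lie above 0, VAR1 and SCEI in red, and all red nuclear points lie below 0.

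Genes that serve mitochondrial gene expression and DNA were taken as 4 lists, to be read beside the 6.74% of all genes that were lower in RPS strains. In the list for transcription, splicing and stability of mitochondrial RNA, 2 of 16 tested genes were lower in RPS strains: RPM2, the protein of mitochondrial RNase P, at a log2 change of −0.51, and MSS116, an RNA helicase that helps introns of COX1 and COB splice, at −0.21 (limma adjusted p = 0.0046 and 0.042). A listed gene, COX24, was not found by name in the tables. Of the gene-specific translational activators, 1 of 14 tested was lower, near the share over all genes. This was CBP3 (log2 change −0.27), which acts on COB. Of 6 general mitochondrial translation factors 3 were lower, namely TUF1 (−0.32) and MEF1 (−0.20), which encode elongation factors, and MEF2 (−0.29), a relative of MEF1. Of 9 genes that maintain mitochondrial DNA 3 were lower, namely MGM101 (−0.36) and MHR1 (−0.36), which act in its recombination, and ABF2 (−0.35), which packages it. No gene of these 4 lists was higher, where 2.92% of all genes were.

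Against wild type no member passed in either class. In RPS over wild type 0 of 8 members and 0.00% of 5103 genes were past the limma adjusted p of 0.05. At an unadjusted p under 0.05 there were 0 members and 521 genes (10.2%), and in RPL over wild type 0 members and 137 genes (2.68%), where the adjusted calls were again 0 of 8 and 0.00%. The voom fit on reads also called 0 members in both comparisons. Both comparisons share the same wild-type libraries. The members' median log2 change was 0.08 for RPS over wild type and −0.15 for RPL over wild type.

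The 2 wild-type libraries differed from each other, most in VAR1. Wild type 2 had 3.81 times the VAR1 mRNA level of wild type 1, beside a highest over lowest ratio of 3.67 among RPS and 4.01 among RPL strains. It had 2.01 times the level of COX3, 1.89 times that of COB, 1.66 times that of COX1, 1.61 times that of COX2 and 1.41 times that of SCEI. OLI1 was nearly equal, at 1.06 times, and ATP8 was at 0.833 times. The highest over lowest ratio within a class was wider than the wild-type ratio in both classes for most members. That ratio was taken over 9 RPS and 14 RPL libraries, against 2 of wild type, and it widens with the number of libraries. The comparison therefore does not show a spread between strains beyond that of wild type. It was 2.35 among RPS and 2.74 among RPL strains for COX3, 2.65 and 2.16 for COB, and 3.19 and 4.37 for OLI1. For COX1 it was 2.21 and 2.23, and for SCEI 1.59 and 1.53. For ATP8 it was 1.65 and 1.96, beside 1.2 between the wild-type libraries. COX2 was wider among RPL strains only (2.87, beside 1.465 among RPS strains). Wild type 2 ranked 4 of 25 and wild type 1 ranked 20 in the median deviation over the 8 tested members. The reads behind VAR1 were 52 in wild type 2 and 12 in wild type 1. With libraries of 1 strain number this far apart, the deviation of a single mutant library from the median has no error of its own.

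Across strains the levels of most members varied in the same direction, and ATP8 least so. Each library was described by its log2 deviation from the median of the 25 for each of the 8 tested members. The highest profiles were those of rps22a (4659), above the median in 8 of 8 members with a median deviation of 0.57, rpl38 with 0.55 and rps28b with 0.48. The lowest were rpl24b with −0.51, rps25a rps25b with −0.39 and rpl26b with −0.37.

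**Figure D3:**
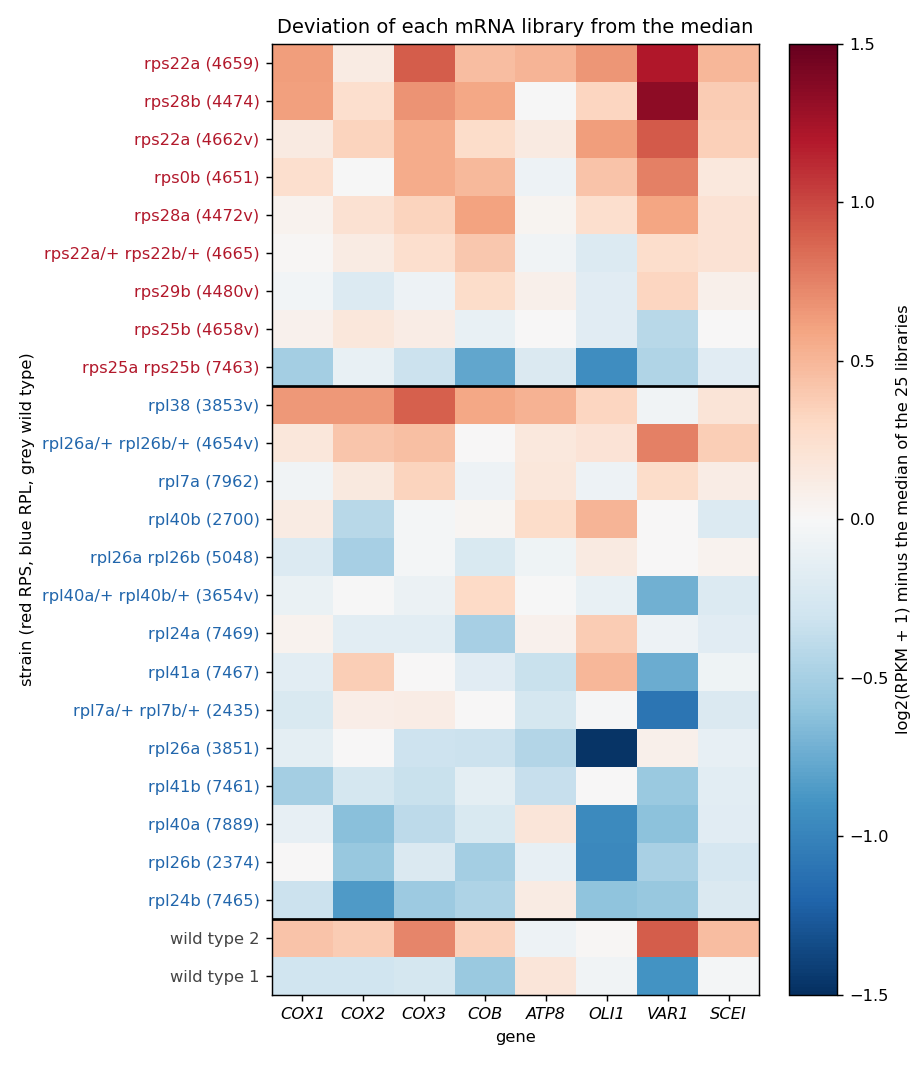
Deviation of log2(RPKM + 1) mRNA levels from the median of 25 libraries (colour, red above and blue below) for 8 members (columns) in 9 RPS, 14 RPL and 2 wild-type libraries (rows, sorted within each class by the median deviation). The rps25a rps25b row is blue for all 8 genes, rpl38 is red except for VAR1, and wild type 2 and wild type 1 contrast.

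In rpl38, which lacks a large-subunit protein encoded by a single gene, 7 of 8 members were above the median. Its levels were 348 RPKM for COX1, 147 for COX2, 295 for COX3, 68.8 for COB, 813 for ATP8, 28.4 for OLI1 and 7378 for SCEI. COX1, COX2 and ATP8 were at their highest of the 25 libraries there. For COX1 and ATP8 the rps22a (4659) library was close, at 344 and 803 RPKM. VAR1 was the exception, at 15.3 RPKM near its median of 15.8. This was also the deepest mRNA library, with 3506457 reads.

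The rpl24b library had the lowest COX2 and COX3 mRNA levels of the 25, at 51.1 and 107 RPKM, against medians of 92.9 and 158 RPKM. Its 7 low members included COX1 at 178, COB at 32.9, OLI1 at 14.5, VAR1 at 10.3 and SCEI at 5544 RPKM. ATP8, at 614 RPKM, was above its median of 566 RPKM. The paralog deletion rpl24a was nearer the middle, with COX2 at 83.5 and COX3 at 142 RPKM.

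All 8 tested members were below the median in rps25a rps25b, the deletion of both genes for Rps25. COX1 (155.6 RPKM, beside 156 RPKM in rpl41b) and COB (26.3 RPKM) were at their lowest of the 25 there. COX2 was at 85.7, COX3 at 126, ATP8 at 486, OLI1 at 11.3, VAR1 at 11.4 and SCEI at 5719 RPKM. Without SCEI the members took 0.0482% of reads (95% Wilson interval 0.0441 to 0.0526%), the lowest share of the 25. The shares of rpl41b (0.0489%) and rpl24b (0.0494%) lay within that interval. The single deletion rps25b was near the middle, with a median deviation of 0 and COB at 42.4 RPKM. The total of the double deletion, 1039986 reads, was among the lower ones.

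When mitochondria fail, yeast cells raise a set of nuclear genes through the retrograde factors Rtg1 and Rtg3, and another set through Pdr3. These 11 genes were ranked among the 25 mRNA libraries in the same 3 strains. In rps25a rps25b, 6 of them had their highest level of all, in a library where 11.5% of the 5103 genes had theirs, the largest share of any library. CIT2, the peroxisomal citrate synthase and standard retrograde reporter, had 314 RPKM there against a median of 56.4 RPKM over the 25, a ratio of 5.57. DLD3, a cytosolic D-lactate dehydrogenase and another retrograde target, had 1078 RPKM against a median of 257 (ratio 4.19). PYC1, a pyruvate carboxylase, stood at 3.72 times its median, CIT1, the mitochondrial citrate synthase, at 2.66 times, PDR15 at 1.86 times and IDH1, of isocitrate dehydrogenase, at 1.59 times.

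CIT2 was also above its median in other strains. It stood at 3.05 times its median in the strain labelled rps22a (4662v), where all 8 tested members were above their medians, at 2.78 times in rpl41b, 2.59 in rpl41a, 2.42 in rpl40a/+ rpl40b/+ and 2.29 in rpl7a/+ rpl7b/+. The set did not move as one. In rps25a rps25b the aconitase gene ACO1 was at its median, and the transcription factor gene PDR3 and its target PDR5, a drug pump, both ranked 21 of 25. In rpl38, CIT2 ranked 21 at 0.489 times its median and DLD3 ranked 20, while ACO1, IDH1 and IDH2 ranked 3, 4 and 3. In rpl24b, CIT2 was at its median, DLD3 ranked 21 and PYC1 ranked 22. The 11 ranks had a median of 1 in rps25a rps25b, 15 in rpl38 and 18 in rpl24b, where 1 is the highest level. Each of these is 1 library without a replicate.

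**Figure D4:**
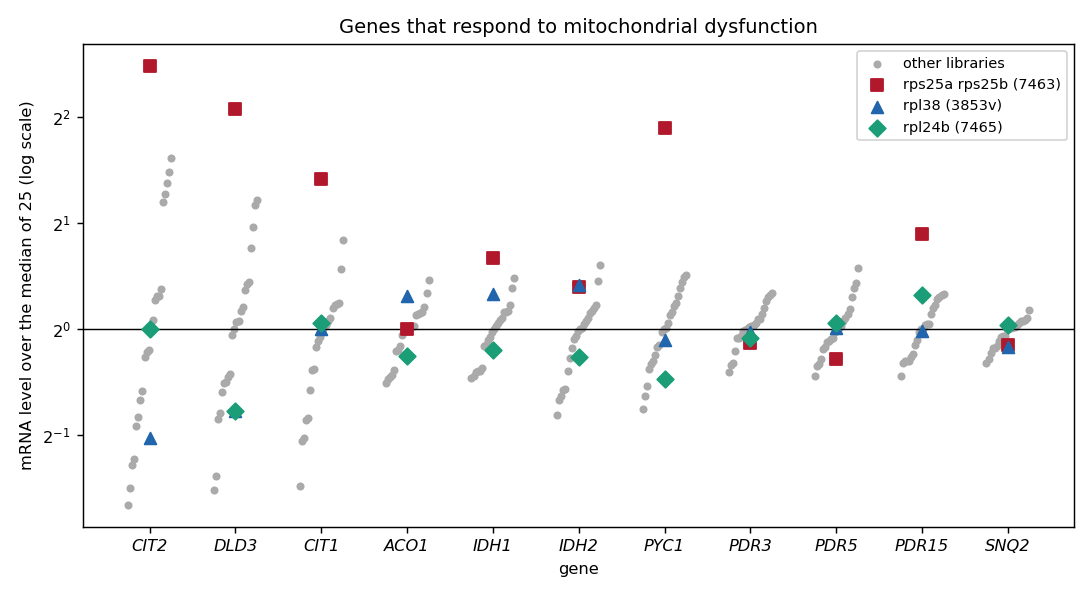
mRNA level over the median of 25 libraries (vertical axis, log scale) of 11 genes that respond to mitochondrial dysfunction, with rps25a rps25b, rpl38 and rpl24b marked among the other libraries in grey. The rps25a rps25b squares lie above every other library for CIT2, DLD3, CIT1, IDH1, PYC1 and PDR15.

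Between the classes, 3 of these 11 genes were lower in RPS strains and none higher, where 6.74% of all genes were lower and 2.92% higher. These 3 were IDH2 (log2 change −0.49, limma adjusted p = 0.015), the pump gene PDR5 (−0.41, adjusted p = 0.0014) and ACO1 (−0.35, adjusted p = 0.013). Without rpl38, rpl24b and rps25a rps25b, 6 of the 11 were lower, where 8.85% of all genes were.

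Over the 25 mRNA libraries, all 28 pairs of tested members had positive correlations of log2 levels, with a median Pearson r of 0.589. COX1 and COX3 were the closest pair (r = 0.872), and COX3 and SCEI, like VAR1 and SCEI, had r = 0.870. COX2 and ATP8 were the least alike (r = 0.088). The 15 pairs without ATP8 and OLI1 ran over 0.455 to 0.872, and the 13 pairs with either over 0.088 to 0.643. The points share libraries and library totals, and OLI1 rests on few reads, so these values are descriptive.

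Among 5084 nuclear genes, those most like the mean of the members over the 25 libraries were SSL2 (Pearson r = 0.746), a helicase of the transcription factor TFIIH, KAP114 (0.719) and KAP120 (0.711), which are nuclear transport receptors, PTI1 (0.717), of the mRNA cleavage and polyadenylation machinery, and TMN3 (0.707). Least alike were VMA13 (−0.727), a subunit of the vacuolar proton pump, PHO4 (−0.673), the transcription factor of phosphate starvation, and MRPL38 (−0.656), a nuclear-encoded protein of the mitochondrial ribosome. Of the 5 most alike, 3 stayed among the first 5 by Spearman correlation and 2 without rpl38, rpl24b and rps25a rps25b. The genes named are the ends of a ranking of 5084 correlations over 25 libraries, so high values arise by selection alone. Members were not scaled to equal spread, so VAR1 and OLI1 weigh most in their mean. These values are descriptive.

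Ribosome footprints on the members were almost absent, apart from SCEI. The other 8 genes gave 126 footprint reads in all 25 libraries together, with a median of 4 a library and at most 24, in rpl7a/+ rpl7b/+. COX1 gave 64 of these, COX3 24, COB 15, COX2 14, ATP8 7 and VAR1 2, and OLI1 and ATP6 none. A count of 0 in a library, taken to allow up to 3 reads, allows 2.05 to 4.28 RPKM for OLI1 and 0.486 to 1.02 RPKM for ATP6. These limits cover counting error only.

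For the tested members with any footprint read other than SCEI, the ratio of footprint to mRNA level was 0.00069 for VAR1 to 0.0018 for COB, against a median of 0.719 over 5103 genes. COX1, for example, had a mean footprint level of 0.279 RPKM beside a mean mRNA level of 231 RPKM. In that ranking of the genes by this ratio, VAR1 was 13 and COB 35 of 5103 counted from the lowest, with ATP8, COX1, COX3 and COX2 between them. These reads are too few to measure translation of the 8 genes.

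**Figure D5:**
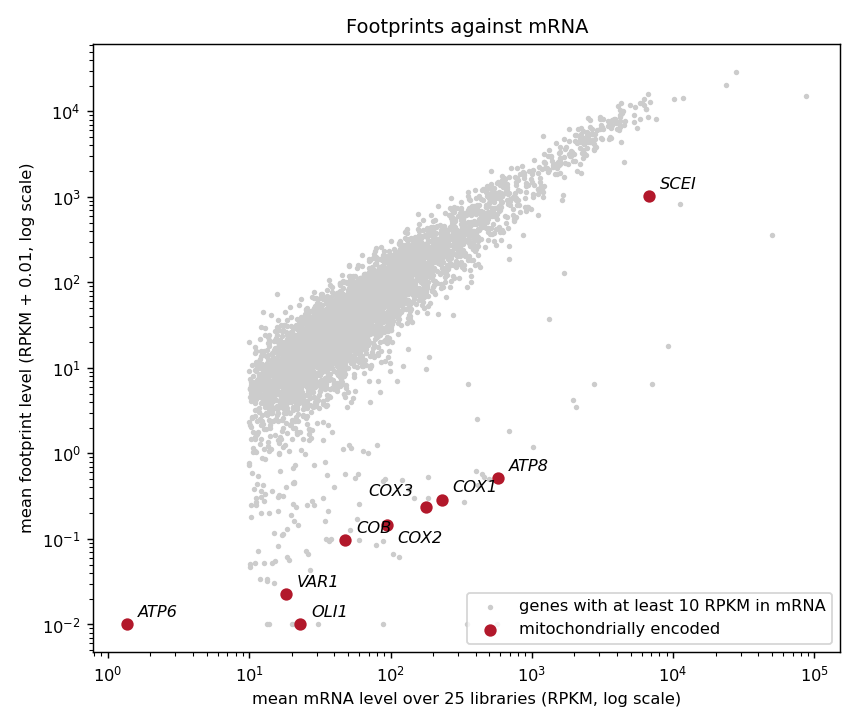
Mean footprint level (vertical axis, RPKM + 0.01, log scale) against mean mRNA level (horizontal axis, RPKM, log scale) over 25 libraries each, for genes with at least 10 RPKM in mRNA (grey) and the 9 members (red). SCEI, at 1013 RPKM of footprints, lies just under the main cloud, and the other 8 lie far below it, OLI1 and ATP6 at 0 footprints.

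SCEI gave 96746 footprint reads, 1243 to 9911 a library. Its lowest, median and highest footprint levels were 386, 807 and 1749 RPKM in RPS strains and 375, 1002 and 2589 RPKM in RPL strains, with 603 and 329 RPKM in wild type 1 and wild type 2. rpl26a (2589 RPKM), rpl24a (2440 RPKM), rpl40b (1797 RPKM) and rps28b (1749 RPKM) were the high libraries, and rpl24b (375 RPKM) was the lowest mutant. The RPS over RPL log2 change of the footprint level was −0.16 (SE 0.33, limma adjusted p = 0.82), where 0 of 1 member tested and 5.61% of 4222 genes were past the test, 1.21% as higher and 4.41% as lower. At an unadjusted p under 0.05 SCEI did not pass either, nor with voom.

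Footprint levels of SCEI did not follow its mRNA levels. They spanned 7.87-fold over the 25 libraries, against 1.68-fold in mRNA, and the correlation of the log2 levels of both assays over the 25 strains was −0.102. The mean ratio of footprint to mRNA level was 0.151, rank 265 of 5103 from the lowest. Since the frame lies in an intron of ribosomal RNA, ribosome-protected pieces and other RNA pieces of that size from the intron cannot be told apart in these counts.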

How the data were processed

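Both tables, as deposited, hold a signal that the authors scaled to the library total and multiplied by a length term, although the file headers say RPKM. The step of 1 read grew in proportion to coding length minus 60 nt, times a factor of the library. Whole reads were recovered within a tolerance of 0.03 (87.6% of 5812 genes with an annotated length, and 23 at another gene's length), and RPKM was recomputed over that length. For COX1, COB and VAR1 the length was found from the values (1605, 1158 and 1161 nt), and whole reads then follow by construction. Tools named in the submitters' processing notes are Bowtie2, CASAVA and bcl2fastq 2.17. Genome build, annotation, strand use and the handling of multiply matching reads are not given in the sources. Names came from the R64 gene table. An unnamed total line per table was left out.

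log2(RPKM + 1) was fitted, for genes averaging 10 RPKM or more, with limma 3.58.1 (R 4.3.3; mean-variance trend), the 3 classes in 1 fit, two-sided, with Benjamini-Hochberg adjustment over all genes tested and a threshold of 0.05. The fit was tested on simulated data. Intervals are exact Poisson or Wilson at 95% and cover counting error only, and the limit at 0 reads is 3 reads. All members are named, with up to 3 called genes of each list by size of change and the 5 most and 3 least alike genes. ATP6, under the minimum, was left out of the 4-fold rule. Members and lists were chosen with earlier results of these data known.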

Additional observations from a re-analysis of the deposited data

Results flagged for a closer look

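ATP8 mRNA in the rps22a (4659) library stood apart from the other RPS strains, at 802.6 RPKM against 620.5 RPKM in the next highest. The gap was 0.576 of the range of the 9 RPS values, above Dixon's 95% critical value for 9 samples. The 9 members' RPS values were examined in this way, and chance alone marks about 1 in 20 such groups. In that library all 8 tested members were above the median of the 25. Its ATP8 value rested on 91 reads (95% Poisson interval 646 to 985 RPKM) and the next highest on 54 (466 to 810 RPKM). These intervals overlapped, and rpl38, an RPL strain, had 813 RPKM.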

How the results depend on the processing

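The count of members past the test in RPS over RPL mRNA, 2, stayed at 2 under median-of-ratios scaling, totals of nuclear genes, pseudocounts of 0.1 and 10 and voom on reads. It was 1 under quantile normalization (VAR1), 1 with a minimum of 50 RPKM (SCEI; VAR1, OLI1 and COB were then not tested), 0 with no minimum, 0 without the mRNA library labelled rps22a (4662v) and 5 without rpl38, rpl24b and rps25a rps25b. Leaving out each library gave 0 to 3. With no minimum the changes of VAR1 and SCEI were as before and their adjusted p was 0.053 and 0.056. The causes of the other moves were not tested. The other 3 counts were 0 under every setting run. The quasi-likelihood count test listed beforehand was not run. No paired analysis was possible because the strain classes share no replicate numbers in the labels, which number only the wild-type libraries.

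Changes near 0 turned sign. ATP8 in RPS over wild type, −0.012, was 0.0089 under median-of-ratios scaling, 0.108 under quantile normalization, 0.0002 with voom and 0.0212 without the 3 strains, and SCEI in RPS over wild type, −0.022, was 0.0236 without them. With 1 library left out, ATP8 in RPS over RPL ran over −0.0070 to 0.0911. Against wild type, these log2 changes followed which wild-type library was kept, the lone one then being assumed to vary like the other classes. For RPS over wild type they ran over −0.143 to 0.120 (ATP8), −0.104 to 0.795 (COB), −0.299 to 0.433 (COX1), −0.278 to 0.402 (COX2), −0.404 to 0.599 (COX3), −0.268 to 0.225 (SCEI) and −0.408 to 1.40 (VAR1). For RPL over wild type they ran over −0.193 to 0.0693 (ATP8), −0.472 to 0.428 (COB), −0.494 to 0.237 (COX1), −0.502 to 0.179 (COX2), −0.757 to 0.245 (COX3) and −1.18 to 0.626 (VAR1). Few reads limit OLI1, ATP6 and VAR1 in mRNA and every footprint value but those of SCEI. The footprint libraries are deeper than the mRNA libraries, and why the members have so few footprints was not tested.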

Other observations

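The tables also hold reading frames inside the introns of COX1 and COB, several of which encode maturases or endonucleases and continue upstream host-gene exons. Their mRNA levels per length exceeded that of the host in 25 of 25 libraries for AI1, AI3, AI4, AI5_ALPHA and AI5_BETA in COX1 and for BI2, BI3 and BI4 in COB. The median ratio to the host was 4.44 for AI3 and 6.97 for BI3. AI2 was the exception, below COX1 in every library, with a median ratio of 0.341. How reads of shared exons were assigned is not given in the sources used here, so host and intron levels are uncertain against each other. None of these 9 frames passed the test of RPS over RPL strains, the lowest limma adjusted p being 0.094 for BI4 (log2 change 0.30). The lowest level of AI2, AI3, AI4, BI2, BI3 and BI4 over the 25 libraries was in rps25a rps25b, and the highest of the 6 COX1 frames was in rpl38.

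Of the 18 mitochondrial rows outside the 9 genes, 2 were at 0 in every library of both assays, and the other 16 gave 936 footprint reads in all 25 libraries. Of these, rpl40a held 218 and rpl7a/+ rpl7b/+ 186, against a median of 21 a library. The same libraries held the most footprint reads of the 8 members other than SCEI, at 21 and 24.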
